A study of Mus musculus with 18 samples.

Results

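The RLTR44 family of mouse endogenous retroviruses was taken as the 6 repeat subfamilies whose name begins with RLTR44: the internal part RLTR44-int and the long terminal repeats (LTRs) RLTR44A, RLTR44B, RLTR44C, RLTR44D and RLTR44E. They are 6 of the 1365 repeat subfamilies in each of the 3 deposited tables, and all 6 are classed there as ERVK. The rule uses names only, but the family was picked with its values in embryonic stem cells (ESCs) already known. Those values are therefore given as a description, and the macrophage and neuronal progenitor cell (NPC) values are the ones to which a test applies. Members and lists were chosen with earlier results of these data known, so these tests may not be independent of the choice. The 6 rows may also share reads and are not 6 independent outcomes.

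The study measured poly(A) RNA in 18 libraries, 3 in each of 6 groups. ESCs in 2i medium, M-CSF-derived bone marrow macrophages and NPCs in N2B27 medium with EGF and FGF were either left untreated or given the HSP90 inhibitor NVP-AUY922 for 24 h. HSP90 is a chaperone that helps many signalling and regulatory proteins fold. NPCs received 50 nM, ESCs 100 nM and macrophages 500 nM. Per the labels, ESCs and NPCs have the strain background 129S1/CASTEiJ and macrophages BALBC/C57BL6, so dose (and strain, in macrophages) cannot be told apart from cell type. Whether replicates came from separate cultures or animals is not in the labels, and p-values then reflect only how far these libraries vary, possibly for technical reasons. The tables hold repeats only, so the cell types could not be checked by marker genes, and neither depth nor values per library were analysed here.

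ERVK elements are class II endogenous retroviruses, remnants of betaretrovirus-like infections of the germ line. In a complete copy, a pair of LTRs flanks an internal part that encodes, or once encoded, the gag, pro and pol proteins, and the promoter and polyadenylation signal lie in the LTRs. Many copies have lost their internal part by recombination between the LTRs and remain as solitary LTRs that can still act as promoters or enhancers. In mouse ESCs, many ERVK copies are held silent by KRAB zinc finger proteins, the corepressor TRIM28 (KAP1) and the histone methyltransferase SETDB1. Each row of the tables stands for all genomic copies of a subfamily together. Near-identical LTRs, and an LTR and the internal part next to it, may share reads. Reads from gene transcripts that contain a copy may also be counted.

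Each table gives, per subfamily, the authors' log2 fold change between the 3 treated and the 3 untreated libraries with its standard error (SE), and the base mean, which averages normalised read counts over the libraries. Which group is the numerator is not stated. Values are thus called positive or negative, without saying which sign means more RNA in treated cells.

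In ESCs all 6 RLTR44 rows lay on the positive side, but over a wide range. RLTR44-int, the retroviral body of the family, had a value of 2.21 ± 0.09 (SE) in the authors' deposited table, where its groups thus differed 4.61-fold, with a base mean of 1750. Among the LTRs, RLTR44D lay higher still. It stood at 2.75 ± 0.17 in the authors' deposited table, with groups 6.73-fold apart and a base mean of 217. In bulk RNA, fewer cells that transcribe a repeat and less RNA per cell cannot be told apart. RLTR44A followed at 1.42 ± 0.14 and RLTR44B at 1.12 ± 0.13 in the authors' deposited table, which are 2.67-fold and 2.18-fold differences. The lowest values were those of RLTR44C at 0.88 ± 0.16 and RLTR44E at 0.63 ± 0.13 in the authors' deposited table, or 1.83-fold and 1.54-fold.

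Within the ESC order, the gap from RLTR44D to RLTR44-int (0.55) and from RLTR44-int to RLTR44A (0.79) exceeded 1.96 times the combined SE, which was 0.37 and 0.31. The neighbours further down, from RLTR44A through RLTR44B and RLTR44C to RLTR44E, were each separated by less than that. Of the 15 pairs of members, 10 had 95% intervals that did not overlap. These are all 5 pairs that hold RLTR44D, the other 4 pairs that hold RLTR44-int, and RLTR44A with RLTR44E. The combined SE takes the rows as independent, which rows from the same libraries with possibly shared reads are not.

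Among the 272 ERVK rows with an adjusted p-value in ESCs, RLTR44D, RLTR44-int and RLTR44A held places 1, 2 and 3 from the positive end. RLTR44B and RLTR44C held places 7 and 8, and RLTR44E place 19. All 6 passed the authors' adjusted p of 0.05 on the positive side, where 10.2% of the 1132 rows tested did so. As the family was picked on this contrast, nothing is read from that count.

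**Figure D1:**
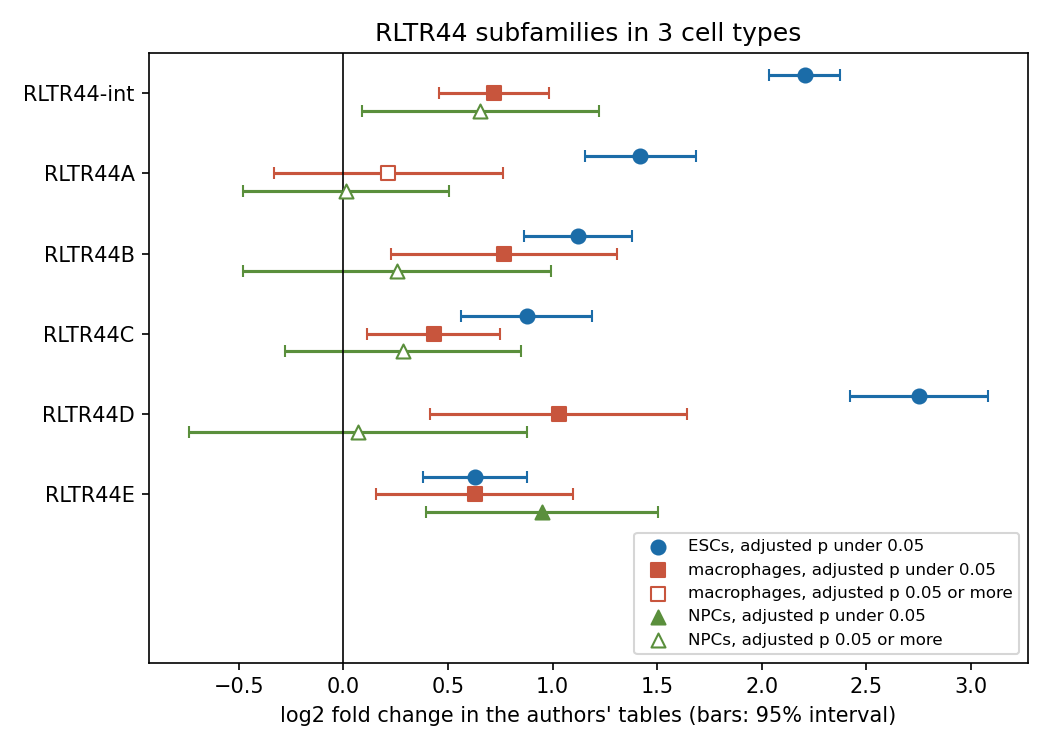
Log2 fold change (x axis) of each RLTR44 subfamily in the authors' tables for ESCs (circles), macrophages (squares) and NPCs (triangles), with 95% intervals as bars and filled symbols for an adjusted p under 0.05. The ESC values run from 0.63 to 2.75, the macrophage values from 0.21 to 1.03 and the NPC values from 0.014 to 0.95, all to the right of 0.

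In macrophages, 5 of the 6 subfamilies passed the authors' test on the positive side, within a narrower band of values than in ESCs. The exception was the LTR RLTR44A. On this side 13.3% of the 1255 rows tested were called. The value of RLTR44-int was 0.72 ± 0.13 in the authors' deposited table (1.65-fold, base mean 138), with an adjusted p of 1.100e-06 from the DESeq2 Wald test. RLTR44D again lay highest in the family, at 1.03 ± 0.31 in the authors' deposited table (2.04-fold, adjusted p 0.00623 in DESeq2), but on a base mean of only 12.5.

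The other LTRs in macrophages lay below RLTR44D. RLTR44B was at 0.77 ± 0.28 in the authors' deposited table, with a DESeq2 adjusted p of 0.0252. RLTR44E was at 0.63 ± 0.24 and RLTR44C at 0.43 ± 0.16 in the authors' deposited table, with DESeq2 adjusted p of 0.0373 and 0.0347. RLTR44A lay at 0.21 ± 0.28 in the authors' deposited table (DESeq2 adjusted p 0.653), and its 95% interval ran from -0.33 to 0.76. None of the 15 pairs of members had intervals apart. No neighbours in the macrophage order differed beyond 1.96 times their combined SE. At an adjusted p of 0.01 only RLTR44-int and RLTR44D remained called, so that RLTR44B, RLTR44C and RLTR44E rest on the choice of 0.05.

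In NPCs, RLTR44E was the member that passed, at 0.95 ± 0.28 in the authors' deposited table (1.93-fold, base mean 45.8, DESeq2 adjusted p 0.0107). It thus passed in the 3 tables, and it was the member with the lowest value in ESCs. On the positive side 4.96% of the 1249 rows tested in NPCs were called, and 1 of 6 members is too few to read against that share. RLTR44-int lay at 0.65 ± 0.29 in the authors' deposited table, with an unadjusted p of 0.0236 and an adjusted p of 0.140 in DESeq2. RLTR44C and RLTR44B lay at 0.29 ± 0.29 and 0.25 ± 0.38, and RLTR44D and RLTR44A at 0.069 ± 0.412 and 0.014 ± 0.252, in the authors' deposited table.

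Precision in NPCs was lower than in macrophages for each member but RLTR44A, whose SE was 0.252 in NPCs and 0.279 in macrophages. The SE of RLTR44-int was 0.289 at a base mean of 201, against a median of 0.216 over the 274 other tested rows with a base mean within 2-fold of it. In ESCs and macrophages the corresponding SEs were 0.0860 and 0.134, against medians of 0.0840 and 0.148. In NPCs the 95% interval reached between 0.49 and 0.81 to either side of the value for the 6 members, so that a value such as that of RLTR44C in macrophages was not detectable there. For RLTR44D in NPCs, on a base mean of 11.0, the interval ran from -0.74 to 0.88. As a description, and with the tables taken as oriented alike, it lies wholly below the ESC interval, which starts at 2.42.

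Macrophages and NPCs did not differ detectably for any RLTR44 row, by a test that set the gap between both values against their combined SE, with Benjamini-Hochberg adjustment over the 1222 rows tested in both tables. Of these rows 12.4% were called, and 0 of the 6 members, with 0 also at an unadjusted p under 0.05. With only 6 members, the count of 0 cannot be read against that share and does not show that the cell types were alike. RLTR44D came closest, with a macrophage value 0.96 ± 0.52 above the NPC value (95% interval from -0.055 to 1.97, p 0.0637, adjusted p 0.262, two-sided normal test). For RLTR44-int the difference was 0.068 ± 0.319, with an interval from -0.56 to 0.69. This takes the tables as oriented alike. With the sign of the NPC table turned, 2 members differed, RLTR44-int by 1.38 and RLTR44E by 1.58. As all members are positive in both tables, turning 1 sign adds their values and so enlarges the differences. The share of all rows called with the sign turned was not computed, so nothing is read from the count of 2.

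How far the ESC value stood above those of the other cell types differed between members, again as a description and with the tables taken as oriented alike. RLTR44D, RLTR44-int and RLTR44A lay well above their macrophage values in ESCs, by 1.72 ± 0.36, 1.48 ± 0.16 and 1.21 ± 0.31. They lay above their NPC values by 2.68 ± 0.44, 1.55 ± 0.30 and 1.41 ± 0.29. RLTR44B lay 0.87 ± 0.40 above its NPC value, while its excess over macrophages, 0.35 ± 0.31, had an interval that spans 0. RLTR44C lay higher in ESCs by 0.44 ± 0.23 and 0.59 ± 0.33, both with intervals that reach 0. RLTR44E stood at 0.63 in ESCs and in macrophages, with an interval of the difference from -0.53 to 0.53, and lay 0.32 ± 0.31 lower in ESCs than in NPCs.

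**Figure D2:**
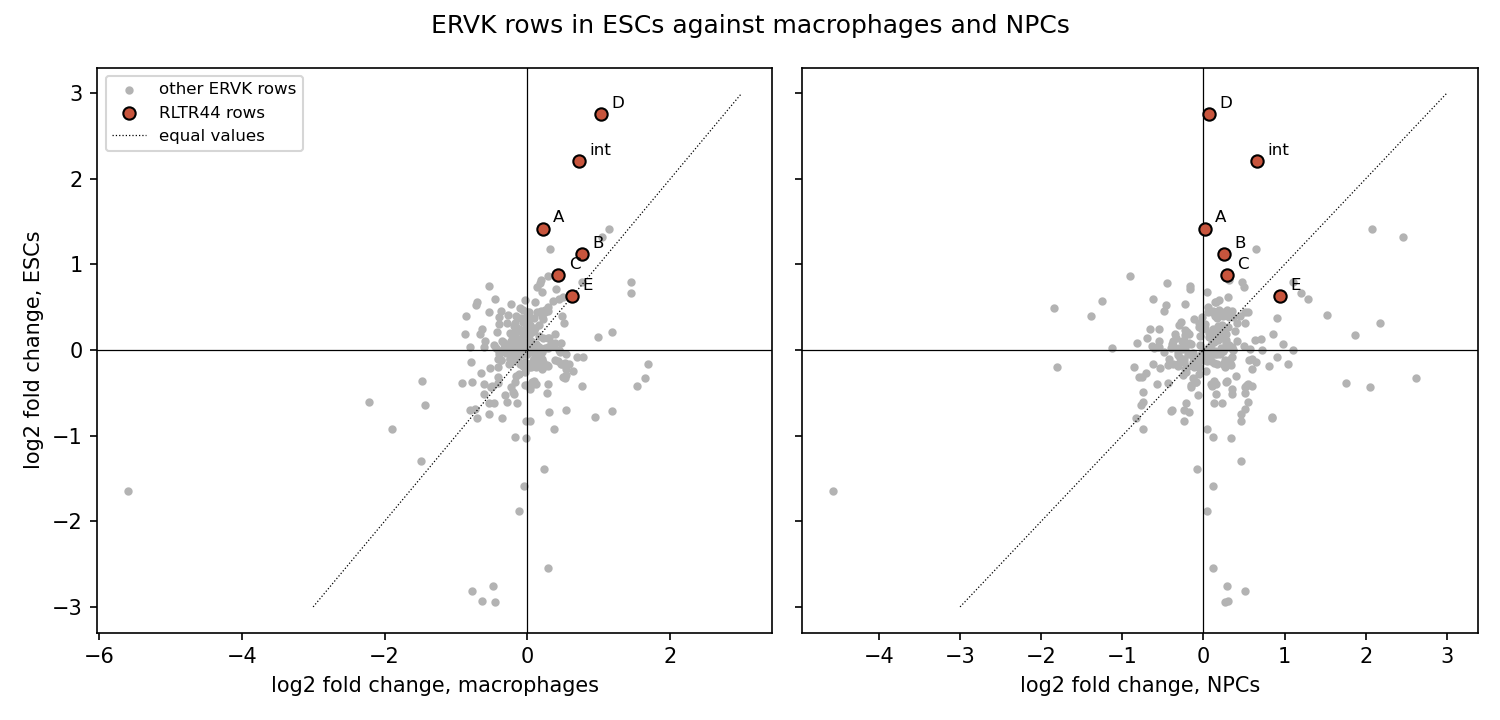
Log2 fold change in ESCs (y axis) against macrophages (left, x axis) and NPCs (right, x axis) for ERVK rows tested in both tables, with the RLTR44 rows in red and the dotted line where both values are equal. RLTR44D and RLTR44-int stand above the other ERVK rows in ESCs, while RLTR44A (1.419) lies level with the highest of them, IAP1-MM_LTR (1.410). RLTR44D, RLTR44-int and RLTR44A lie far above the dotted line, while RLTR44E lies on or below it.

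The base means allow a view of how abundant the family was. Because each table was normalised by itself, base means were expressed in parts per 1000000 (ppm) of the summed base means of all 1365 rows in the table, a share that also moves with the most abundant repeats and has no error here. Macrophages also differ in strain from ESCs and NPCs, and the part of strain in how well reads were placed on mm10 was not tested. The 6 rows together made up 771 ppm in ESCs, 166 in macrophages and 190 in NPCs. RLTR44-int accounted for 59.1% of the family's base means in ESCs, 41.8% in macrophages and 50.7% in NPCs. Read counts are not scaled here by the length or copy number of a row, so these percentages do not compare numbers of transcripts.

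Member by member, the share in ESCs was 6.56 times that in macrophages for RLTR44-int and 8.95 times for RLTR44D, and between 4.89 and 5.37 times for RLTR44A, RLTR44B and RLTR44E. RLTR44C was the exception, with 48.6 ppm in ESCs and 49.4 in macrophages. Relative to NPCs, the ESC share was higher for every member, from 2.30 times for RLTR44A to 10.7 times for RLTR44D.

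With equal groups of 3, a base mean and a fold change imply a level for each group. On this reckoning RLTR44D in ESCs had normalised counts of 377 on the positive side and 56.0 on the negative side, and RLTR44-int 2877 and 624. In ppm of the table, the negative side of RLTR44D in ESCs (14.6) still lay above both sides in macrophages (8.46 and 4.15) and in NPCs (5.39 and 5.14). The same held for RLTR44-int, at 162 on the negative side in ESCs against 86.5 and 52.4 in macrophages and 118 and 74.9 in NPCs. By these point values, which carry no error here, the share of these 2 rows was higher in both ESC groups. So it was for RLTR44A (36.8 on the negative side in ESCs, at most 29.5 elsewhere), RLTR44B (46.4, at most 20.8) and RLTR44E. Whether these orders hold beyond the error of base mean and fold change was not tested, and for RLTR44A the levels lay close. RLTR44C departed, with 34.3 on the negative side in ESCs against 56.7 and 42.1 in macrophages. RLTR44E ran from 54.5 to 84.2 in ESCs, from 10.6 to 16.4 in macrophages and from 15.0 to 29.0 in NPCs.

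**Figure D3:**
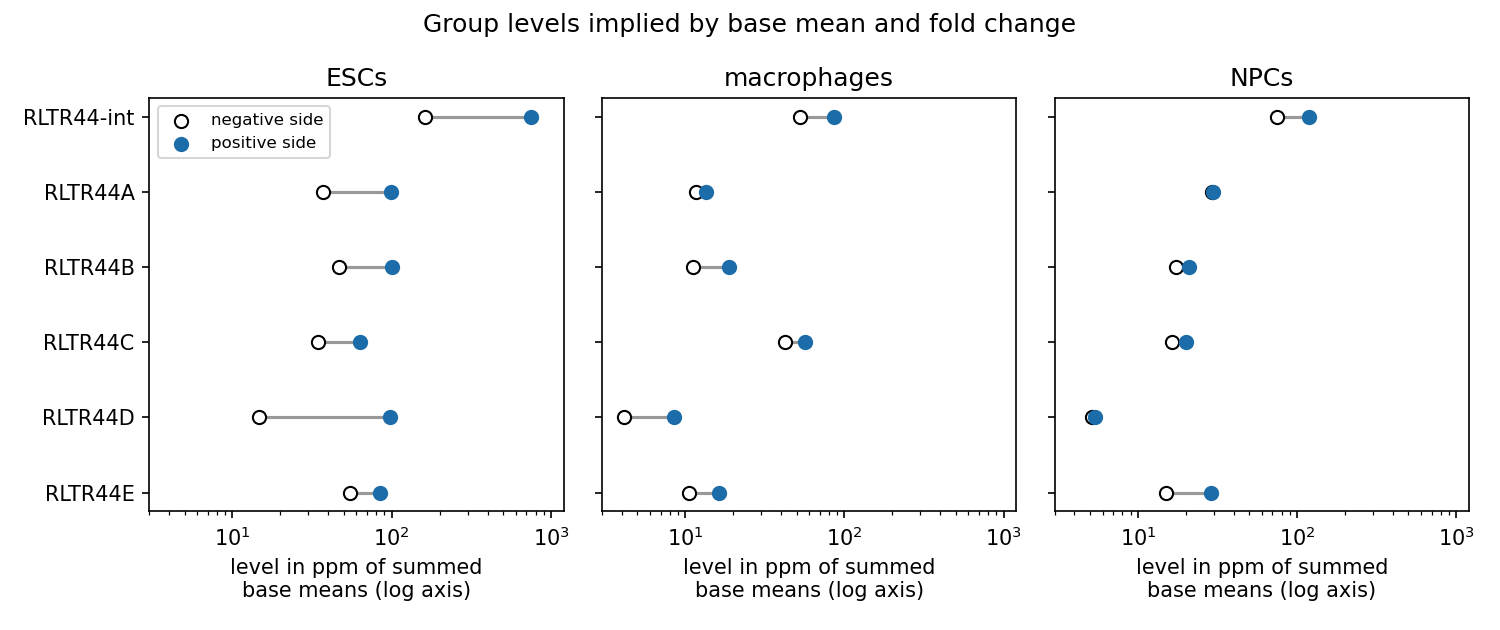
Level of each RLTR44 row on the negative (open) and positive (filled) side of the contrast, implied by its base mean and fold change, in ppm of the summed base means of the table (log x axis), in ESCs, macrophages and NPCs. The gap is widest for RLTR44D and RLTR44-int in ESCs. For every row but RLTR44C, both sides in ESCs lie to the right of its levels in the other cell types. The levels are point values without error, and their order was not tested.

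Low base means bear on these comparisons. The SEs in the tables did not keep growing as counts fell: in macrophages their median was 0.363 for rows with a base mean from 2 to 10 and 0.266 below 2, and in NPCs 0.423 and 0.255. That is the behaviour of fold changes pulled towards 0 at low counts, although the sources used here do not state that this was done. In macrophages 4 members, RLTR44A, RLTR44B, RLTR44D and RLTR44E, had base means of 12.5 to 29.9, and in NPCs the LTRs ranged from 11.0 to 61.1, against 186 to 283 in ESCs. Values in macrophages and NPCs may thus lie nearer 0 than the reads alone would put them, and the part of this in the differences from ESCs was not tested. The implied levels of the 2 groups in these cell types may then lie too close together as well.

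Other ERVK rows did not lie on 1 side. Over all rows tested, 12.0% were called on the negative side in ESCs, 12.5% in macrophages and 6.81% in NPCs. Of the 266 tested in ESCs, 52 were positive, 58 negative and 156 not called, with a median of -0.0098, against 1.27 for RLTR44 and 0.0019 for all rows tested. In macrophages 44 of 271 were positive and 53 negative, with a median of -0.037, against 0.67 for RLTR44 and -0.013 for all rows. In NPCs 27 of 270 were positive and 23 negative, with a median of 0.087, against 0.27 for RLTR44. Other ERVK internal parts, the rows most like RLTR44-int in kind, had 11 positive and 14 negative of 36 in ESCs, 8 and 12 in macrophages, and 9 and 5 in NPCs. Their largest values were 1.32, 1.64 and 2.62, so that RLTR44-int exceeded them in ESCs and lay within their range in the other tables. For the other ERVK LTRs the largest values were 1.41, 1.69 and 2.08 in the same order, and 41 of 230, 36 of 235 and 18 of 234 were positive. The negative calls among these LTRs were 44, 41 and 18. The further rows named RLTR, of any class, had 23 positive and 36 negative of 176 in ESCs, 27 and 33 of 177 in macrophages, and 10 and 19 of 178 in NPCs.

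The 14 other ERVK rows named RLTR40 to RLTR49, of which 12 were tested in each table, had 0 positive and 4 negative in ESCs, 2 and 4 in macrophages, and 2 and 1 in NPCs. In ESCs the called rows ran from RLTR46A2 at -1.39 ± 0.20 to RLTR45, an LTR, at -0.39 ± 0.11 in the authors' deposited table. In macrophages they ran from RLTR46B at -1.50 ± 0.09 to RLTR42-int, an internal part, at 0.22 ± 0.07 in the authors' deposited table. In NPCs the ends were RLTR45 at -0.43 ± 0.16 and RLTR42-int at 0.65 ± 0.16 in the authors' deposited table.

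**Figure D4:**
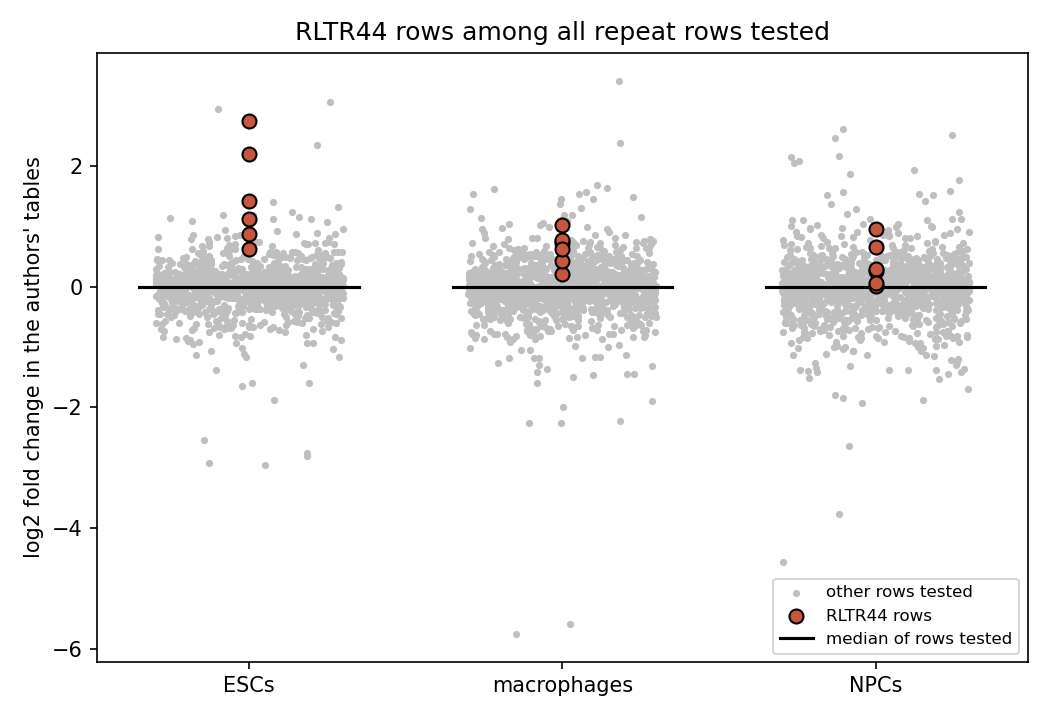
Log2 fold change (y axis) of every tested repeat row in the authors' tables for ESCs, macrophages and NPCs, with the RLTR44 rows in red and the median of the tested rows as a line (sideways spread is random). All RLTR44 rows lie above the median in each table. Their percentiles among the tested rows run from 95.2 to 99.8 in ESCs, from 75.5 to 98.2 in macrophages and from 52.0 to 97.0 in NPCs.

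Outside the family, the rows whose log2 fold changes over the 3 tables were most like those of RLTR44-int were a pair of ERVL rows. Likeness was the Euclidean distance between the 3 values, over the 1121 rows tested in all tables. The ERVL rows MT2_Mm (distance 0.77) and MERVL-int (0.84), the LTR and internal part of the retrovirus transcribed in the early mouse embryo, came first, followed by the ERVK LTR RLTR19D (1.10), tRNA-Gly-GGY (1.27) and the DNA transposon Tigger23a (1.32). RLTR44D lay at 0.86, so that it was place 3 of all 1120 other rows. RLTR44A and RLTR44B came at places 5 and 6, RLTR44C at 11 and RLTR44E at 23. In macrophages MT2_Mm lay at 0.14 ± 0.05 in the authors' deposited table, below the 0.72 of RLTR44-int, while MERVL-int lay at 0.49 ± 0.09. As the ESC value of RLTR44-int lies farthest from 0, the ESC contrast weighs most in this distance. The family was picked with that contrast known, so nothing is read from the places of its members.

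All 6 members had a positive sign in every table, as did 15.5% of the 1121 rows tested in all tables. Passing the test on the positive side in all 3 was seen for 7 of these 1121 rows, of which RLTR44E was 1. The others were chosen for mention by this outcome: the IAP rows IAP1-MM_I-int, IAP1-MM_LTR, IAPEz-int and IAPLTR1_Mm, the DNA transposon Tigger16a and the CR1 row X7C_LINE. These counts include the ESC contrast with which the family was picked, so nothing is read from them.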

How the data were processed

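The submitters' processing notes name build mm10 and, without saying what each did, DESeq2, featureCounts, Bowtie2, TopHat2 2.0.13, deepTools and Trim Galore. Per the file headers, the tables are DESeq2 results. The base mean is a signal computed by the authors, the mean of size-factor-normalised read counts. The log2 fold change and SE are log2 values computed by the authors. The Wald statistic is a score from the authors, and each p-value, raw or adjusted, is as deposited. Numerator, size factors, strand and multi-mapping are not given in the sources used here.

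Computed here were 95% intervals, differences between tables, ranks, shares and implied levels (Python 3.11.15, numpy 2.4.6, pandas 2.3.3, scipy 1.17.1). The difference test was run on simulated data with independent normal noise of the deposited SEs, which is what the test assumes. That run checks the computation only. It does not cover shared reads or fold changes pulled towards 0. Only rows with an adjusted p were tested. Named beside the 6 members are the 5 rows nearest RLTR44-int over the 3 tables and the extreme called rows among RLTR40 to RLTR49. Members and lists were chosen with earlier results of these data known. Alternatives were an adjusted p of 0.01, adjustment over all rows with a p, a base mean of at least 50, centring and turned signs. No sequence of these subfamilies was used here.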

Additional observations from a re-analysis of the deposited data

How the results depend on the processing

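The count of members called on the positive side in ESCs was 6 under each alternative run. Over all rows tested in ESCs, 83 of 1132 were called positive at an adjusted p of 0.01 and 105 of 860 with a base mean of at least 50. With adjustment over all rows with a p it was 108 of 1341, and with centring 115 of 1132. In macrophages the count of members was 5 with adjustment over all rows with a p and with centring, and it was 2 at an adjusted p of 0.01. With a base mean of at least 50 it was also 2, because only 2 members were tested there. Over all rows tested in macrophages, 121 of 1255 were called positive at an adjusted p of 0.01 and 151 of 769 with a base mean of at least 50. With adjustment over all rows with a p it was 165 of 1306, and with centring 171 of 1255. In NPCs the count of 1 member became 0 at an adjusted p of 0.01. Among 2 members tested it was also 0 with a base mean of at least 50, since the base mean of RLTR44E is 45.8. Over all rows tested in NPCs, 42 of 1249 and 57 of 785 were called positive under these settings. The difference between macrophages and NPCs was called for 0 members, and for 2 with the sign of the NPC table turned. The share of all rows called with that sign turned was not computed. Of the ESC differences, the count of members with an interval above 0 rose from 3 to 6 against macrophages and from 4 to 6 against NPCs when the sign of the other table was turned. Turning the sign adds the positive values of a member in both tables. That alternative and the centring of these differences were added after the data were seen, as were all alternatives for the lists of other rows. The direction of a called member could not be reversed by these alternatives, so nothing is read from its staying the same. Thresholds, adjustment and the base mean filter leave the log2 fold changes as deposited. Centring subtracts only the table median, which lay near 0, and turned signs were run for differences only. No paired analysis was possible because single libraries have no values in the tables. Leaving out a replicate was not run for the same reason. Depth per library is unknown, and base means below 50 limit what can be seen of the LTRs in macrophages and NPCs.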
